A study of Mus musculus with 4 samples.

Results

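The comparison described here sets sorted lung fibroblasts of the young adult mouse against those of the days just before birth. It used 2 of the 4 RNA-seq libraries in the series: 1 from postnatal day 28 (P28) and 1 from embryonic day 18.5 (E18.5). Both came from whole lungs of wild-type C57BL6 mice, and in both the cells are labelled as fibroblasts positive for Pdgfra, the platelet-derived growth factor receptor alpha. No transgene or drug is named in the labels. They do not say how many animals gave each library, whether animals were pooled or which sex they were. The other 2 libraries, from E16.5 and P7 mice of the same genotype and strain, were used for scaling and are quoted beside the comparison. Genes entered when at least 1 of the 2 libraries reached 5 scaled FPKM (FPKM are fragments normalized to transcript length and to the fragments of the library, here divided by a scale factor for each library). This kept 6392 of the 23444 gene symbols in the table. The working name of the comparison calls both libraries quiescent, and that name is checked against cell division genes below.

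Pdgfra-positive fibroblasts build the mesenchyme of the gas-exchange region of the lung. Around birth, part of this population takes on a contractile, elastin-depositing form, the alveolar myofibroblast, which sits at the tips of the septa that subdivide the air sacs and is lost again once alveoli have formed. Other members become lipid-storing and matrix fibroblasts of the alveolar wall, or adventitial fibroblasts around vessels and airways. Many growing organs are known to switch off a set of imprinted growth genes, H19 and Igf2 among them, as growth slows after birth.

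In what follows, a difference is log2(scaled FPKM + 1) at P28 minus the same at E18.5, so that positive values are higher at P28. A gene is called higher or lower when the difference is 1 or more in size, which is 2-fold on that scale. The added 1 makes the differences of low genes smaller than their plain ratio. With 1 library per age there is no spread between animals. No difference was tested, no p-value is given, and each statement compares 2 libraries. Where a pair of levels is given without ages, the E18.5 library comes first, and the number in brackets is the difference. In bulk RNA from sorted cells, fewer cells of a type and less RNA per cell cannot be told apart. The depth behind these values is unknown, because FPKM hold no totals of reads.

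The deposited values of the E18.5 library were low as a whole. The scale factor was 0.581 for E18.5 and 1.08 for P28, a ratio of 1.86, which moves the difference of an abundant gene down by 0.89 on the log2 scale relative to the values as deposited, and that of a low gene by less. A scaled difference between -0.89 and 0 would therefore lie above 0 in the deposited values of an abundant gene. The words "scaled only" beside a gene mark a lower call that was not made with FPKM as deposited. Where a pair of counts is followed by a second pair marked as deposited, the second gives higher and lower calls without the scaling. The summed deposited FPKM was 100231 at E18.5 and 220221 at P28. The number of symbols listed at 0 was 6210 and 6111, and an exact 0 can also be an estimate that was not made.

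Of the 6392 genes compared, 1295 were higher at P28 (20.3%) and 839 were lower (13.1%), 33.4% in either direction. These shares are the background for the gene groups below. The median difference over all compared genes was 0.09, with quartiles at -0.51 and 0.80. At 32-fold or more, 36 genes were higher and 38 were lower. With FPKM as deposited, 2951 genes were higher (48.5%) and 279 were lower (4.58%), together 53% of the genes compared that way, so that 91.4% of the calls were higher in place of 60.7%. Differences as deposited can only lie further toward P28, so all 1295 higher genes kept their call by arithmetic, which is no check of them. Of the 839 lower genes, 279 were also called lower as deposited. Under every scaling tried, 1042 of the 1295 higher genes kept their call. Just under the minimum, at 4 to under 5 scaled FPKM in the higher library, 821 genes held 141 that were higher at P28 and 70 that were lower. Just above it, at 5 to under 6, 696 genes held 109 and 51.

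**Figure D1:**
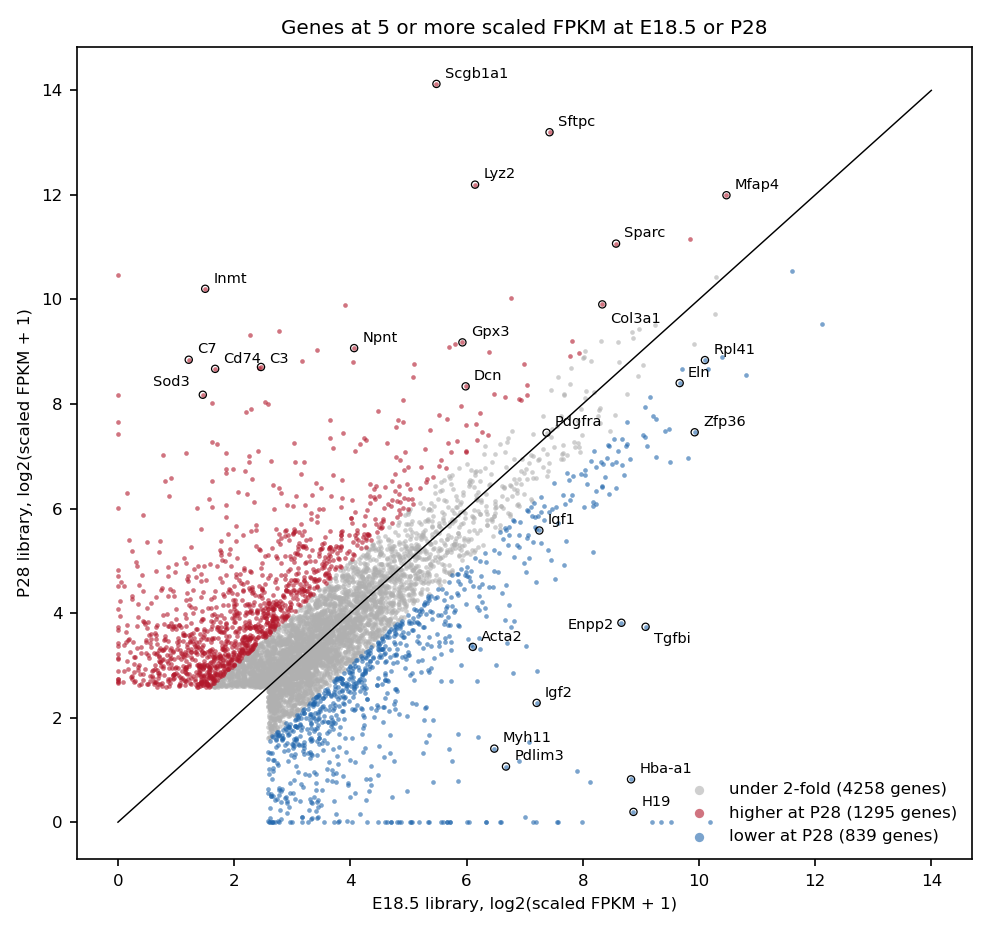
Each point is 1 of the 6392 genes compared, with log2(scaled FPKM + 1) in the E18.5 library on the x axis and in the P28 library on the y axis. The line marks equal values. The 1295 genes called higher at P28 lie above it, the 839 called lower lie below it, and Pdgfra lies close to it.

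Pdgfra itself (plus strand of chromosome 5, 75152292 to 75198215, GRCm38) was at 165 scaled FPKM at E18.5 and 174 at P28, a difference of 0.07. The scaled level was 77.3 at E16.5 and 81.9 at P7. As deposited the P28 value was the higher, at 95.9 FPKM at E18.5 and 188 FPKM at P28, beside 88.7 FPKM for E16.5 and 113 FPKM for P7, so the near-equality rests on the scaling. Of 16 general fibroblast genes 14 were compared, of which 4 were higher at P28 and 0 were lower (9 and 0 as deposited), with a median difference of 0.41. Mfap4, a microfibril glycoprotein of elastic fibres, was the most abundant of them, at 1421 scaled FPKM and 4078 (1.52). The collagen chain Col3a1 was at 322 and 958 (1.57). The proteoglycan decorin (Dcn), which coats collagen fibrils, was at 62.3 and 323 (2.35), and fibronectin (Fn1) was at 129.9 and 330.4 (1.34). Both libraries therefore carried the defining transcripts of lung fibroblasts at high levels. The summed level of the 16 genes was 3880 at E18.5 and 8296 at P28.

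Transcripts of other cell types differed between the libraries. Epithelial markers were higher at P28. All 14 alveolar type 2 genes were higher, and their summed level was 246 scaled FPKM at E18.5 and 12715 at P28. The surfactant protein gene Sftpc (minus strand of chromosome 14, 70520949 to 70524081, GRCm38) made up most of this, at 171 at E18.5 and 9406 at P28 (5.77). Of 12 airway club cell genes 10 were compared and 9 were higher, with summed levels of 101 and 19464. Scgb1a1 (minus strand of chromosome 19, 9083636 to 9087958, GRCm38), the secretoglobin of club cells, was the most abundant transcript of the P28 library, at 43.7 and 17848 (8.64). The alveolar type 2 and club cell lists made up 6.23% and 9.54% of the deposited FPKM at P28, against 0.143% and 0.0583% at E18.5. Of 12 alveolar type 1 genes 9 were compared and 9 were higher (sums of 58.1 and 217). The same held for 8 of 12 general epithelial genes (29.4 and 239), 4 of 10 ciliated cell genes (11.9 and 95.3) and 7 of 9 mesothelial genes (23.2 and 192). Endothelial genes were higher for 13 of the 15 compared (97.2 and 398), though their sum was larger still at P7 (1156).

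Erythroid and most myeloid markers were lower at P28. Of 12 erythroid genes 7 were compared and 7 were lower, with summed levels of 1299 and 2.51 scaled FPKM. The alpha globin Hba-a1 was at 454 at E18.5 and 0.765 at P28, with the caution that reads of globin copies can be shared between them. Of 17 macrophage and monocyte genes 8 were compared, 1 was higher and 7 were lower (1 and 3 of 4 as deposited). The higher gene was lysozyme 2 (Lyz2), which alveolar type 2 cells also express, at 69.8 and 4692. The defining macrophage genes were near or at 0 at P28: the complement component C1qb was at 5.16 at E18.5 and, at P28, listed at 0 (scaled only), and cathepsin S (Ctss) was at 10.3 and 0.256. None of the 15 lymphocyte genes reached the minimum (sums of 4.81 and 3.78), and the leukocyte marker Ptprc was at 0.923 and 0.0911. Of 13 pericyte genes 8 were compared and 7 were lower at P28 (3 of 7 as deposited, sums of 209 and 46.2). Much of the E18.5 sum came from periostin (Postn), which is also on the matricellular list and is given below. How much these other cells contributed to any fibroblast result was not tested. Leaving out every gene on their lists changed the counts over all genes to 1224 higher and 811 lower.

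**Figure D2:**
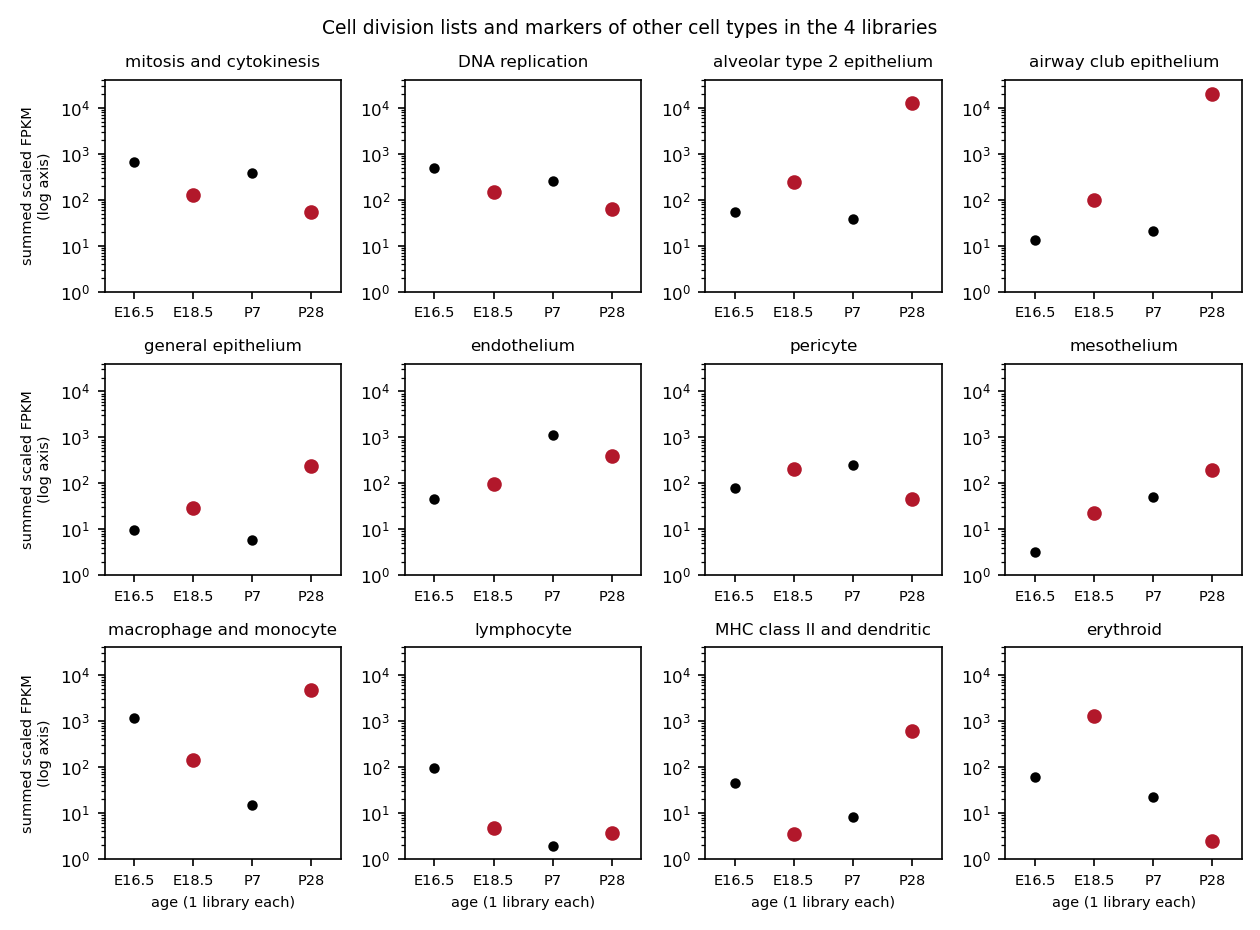
Summed scaled FPKM of 2 cell division lists and 10 lists of other cell types (log y axis) in the 4 libraries, 1 point per library, with E18.5 and P28 as larger red points. Epithelial sums are highest at P28, the erythroid sum is highest at E18.5, and both division sums are lower at E18.5 and P28 than at E16.5 and P7.

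The name quiescent was checked on cell division genes. Only 4 of 30 mitosis genes reached 5 scaled FPKM in either library, and all 4 were lower at P28, with a median difference of -1.52. The summed level of the 30 genes was 129 scaled FPKM at E18.5 and 54.6 at P28, against 663 at E16.5 and 386 at P7. Mki67, the proliferation antigen Ki-67, was at 21.1 at E18.5 and 5.18 at P28 (-1.84). Ccnb2, a mitotic cyclin, was at 11.4 and 1.22 (-2.48). Top2a, the topoisomerase that untangles replicated chromosomes, was at 12.3 and 5.43 (-1.05, scaled only). Both libraries were thus low in mitotic transcripts beside the other 2, but E18.5 was not at the P28 level. As deposited, 2 of the 4 genes stayed lower at P28 and the median was -0.69.

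DNA replication genes gave the same picture, with 7 of 34 compared, 4 lower and 0 higher (median -1.10, sums of 146 and 62.7). The sliding clamp Pcna was at 56.5 at E18.5 and 19.3 at P28 (-1.50, scaled only), and the transcription factor E2f1, which drives entry into S phase, was at 5.66 and 1.2 (-1.60, scaled only). Only 2 replication genes could be compared as deposited, and neither was called. Among 10 G1 cyclins, kinases and their drivers 7 were compared. The growth regulator Myc differed most, at 72.3 and 2.07 (-4.58), with 21.9 at E16.5 and 13.9 at P7. Its level was thus highest at E18.5, unlike the sums of the mitosis and replication genes. The D-type cyclins Ccnd1 and Ccnd3 were higher at P28, with differences of 1.58 and 1.17.

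Of 25 genes that restrain division 20 were compared, and 6 were higher at P28. Cdkn1c, Btg2, Btg1 and Gas5 were lower, the last 3 of them scaled only. As deposited 11 were higher and 1 was lower. Growth arrest-specific 6 (Gas6), a secreted ligand of TAM receptors, was at 9.07 at E18.5 and 76.1 at P28 (2.94), and Gas1, a membrane protein of arrested cells, was at 5.62 and 33.1 (2.37). The forkhead factor Foxo1 was at 6.42 and 20.6 (1.55). The kinase inhibitor Cdkn1c, which is imprinted, was at 48.8 and 9.97 (-2.18). Cdkn1a, the p53-responsive inhibitor, was at 37.8 and 23.3 (-0.68) and was not called.

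Apart from small RNA genes, the largest differences in each direction were those of Inmt and H19. Inmt (minus strand of chromosome 6, 55170626 to 55175043, GRCm38), a methyltransferase of indole amines, was at 1.83 scaled FPKM at E18.5 and 1178 at P28, with 0.148 at E16.5 and 1.65 at P7. It was the tenth most abundant transcript of the P28 library, and its difference was 8.70, a 417-fold difference on the log2(value + 1) scale. C7 (minus strand of chromosome 15, 4988762 to 5063740, GRCm38), which joins the membrane attack complex, was at 1.33 at E18.5 and 459 at P28, with 0.0371 at E16.5 and 11.4 at P7, a difference of 7.63. Both were low in all 3 earlier libraries relative to P28.

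The RefSeq promoter windows of these genes (GRCm38.p6, 250 bases before to 50 after the start) are shown because they carry the largest changes toward P28 among genes that are on no list of other cells and are not small RNA genes. Inmt lies at chr6:55174941-55175240 and C7 at chr15:5063724-5064023, both read from the minus strand. Capitals mark the TATA-box letters TATAAA on either strand, so TTTATA is the same motif read from the other strand.
Inmt: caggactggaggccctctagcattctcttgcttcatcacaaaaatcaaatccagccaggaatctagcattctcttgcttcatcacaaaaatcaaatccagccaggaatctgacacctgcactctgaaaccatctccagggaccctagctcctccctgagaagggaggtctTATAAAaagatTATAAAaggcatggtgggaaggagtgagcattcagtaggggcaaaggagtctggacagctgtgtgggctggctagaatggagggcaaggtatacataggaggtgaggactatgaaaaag
C7: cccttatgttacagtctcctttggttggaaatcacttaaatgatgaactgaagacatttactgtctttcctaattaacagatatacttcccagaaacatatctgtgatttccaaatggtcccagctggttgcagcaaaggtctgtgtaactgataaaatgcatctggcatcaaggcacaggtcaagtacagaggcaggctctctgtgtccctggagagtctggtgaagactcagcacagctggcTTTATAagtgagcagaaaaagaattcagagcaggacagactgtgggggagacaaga
The Inmt window held 2 copies and the C7 window 1. TATAAA on either strand was present in 13.6% of all 32851 windows of this length. Counted by gene with any window, it was present in 15.7% of all genes and in 9.60% of the compared genes. By list it was present in 4 of 18 complement genes (22.2%) and in 10 of 32 xenobiotic metabolism genes (31.2%). On the list of MHC class I and antigen processing genes it was present in 5 of 17 (29.4%). A match is a run of letters and not a measured binding site. Where a match lies relative to the start was not taken into account, and the C7 match, on the opposite strand, ends directly before the start.

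Sod3, the extracellular superoxide dismutase, was next among the higher genes chosen in this way, at 1.75 at E18.5 and 288 at P28 (6.72). Pcolce2, an enhancer of procollagen processing, was at 2.06 and 259.5 (6.41), and Scd1, a fatty acid desaturase that alveolar type 2 cells also use, was at 4.38 and 409 (6.25). Nephronectin (Npnt), a basement membrane ligand of integrin alpha 8, was at 15.7 and 536 (5.0). Its partner Itga8 was at 8.19 and 118 (3.70). The fibulin Efemp1 was at 2.62 and 102 (4.82), the actin-severing protein gelsolin (Gsn) at 15.5 and 447 (4.77), and the calcium-binding protein S100g at 2.64 and 108 (4.90). Absence from the lists of other cells does not show that a gene, S100g included, was expressed by the fibroblasts. The alveolar type 2 list had sums of 246 and 12715, and its cells' part in these differences was not tested.

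H19 (minus strand of chromosome 7, 142575529 to 142578143, GRCm38), an imprinted noncoding RNA, led the lower genes outside the small RNA genes, at 468 scaled FPKM at E18.5 and 0.146 at P28, with 269.6 at E16.5 and 13.6 at P7. Its difference was -8.68, and its rank by level went from 36 at E18.5 to 14175 at P28. Egfem1, which encodes a protein with EGF-like domains, was at 127 at E18.5 and 0.0642 at P28 (-6.91). Tgfbi, a secreted adhesion protein induced by TGF-beta (plus strand of chromosome 13, 56609523 to 56639562, GRCm38), was at 541 and 12.3 (-5.34). Enpp2 (minus strand of chromosome 15, 54838901 to 54952892, GRCm38), which encodes the lysophosphatidic acid-producing enzyme autotaxin, stood out in the E18.5 library alone. It was at 405 at E18.5 and 13.1 at P28, with 10.2 at E16.5 and 13.8 at P7, a difference of -4.85. Angiotensinogen (Agt) was at 56.6 and 0.719 (-5.07), the endothelin receptor Ednrb at 148 and 6.43 (-4.33) and the LIM protein Pdlim3 at 101 and 1.09 (-5.61). The stefin copies Stfa1, Stfa2 and Stfa2l1, known from neutrophils, were at 18.5, 21.3 and 32.5 at E18.5 and, at P28, listed at 0. They are near-identical copies that can share reads, and the neutrophil gene S100a8 moved with them, at 28.1 at E18.5 and, at P28, listed at 0.

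**Figure D3:**
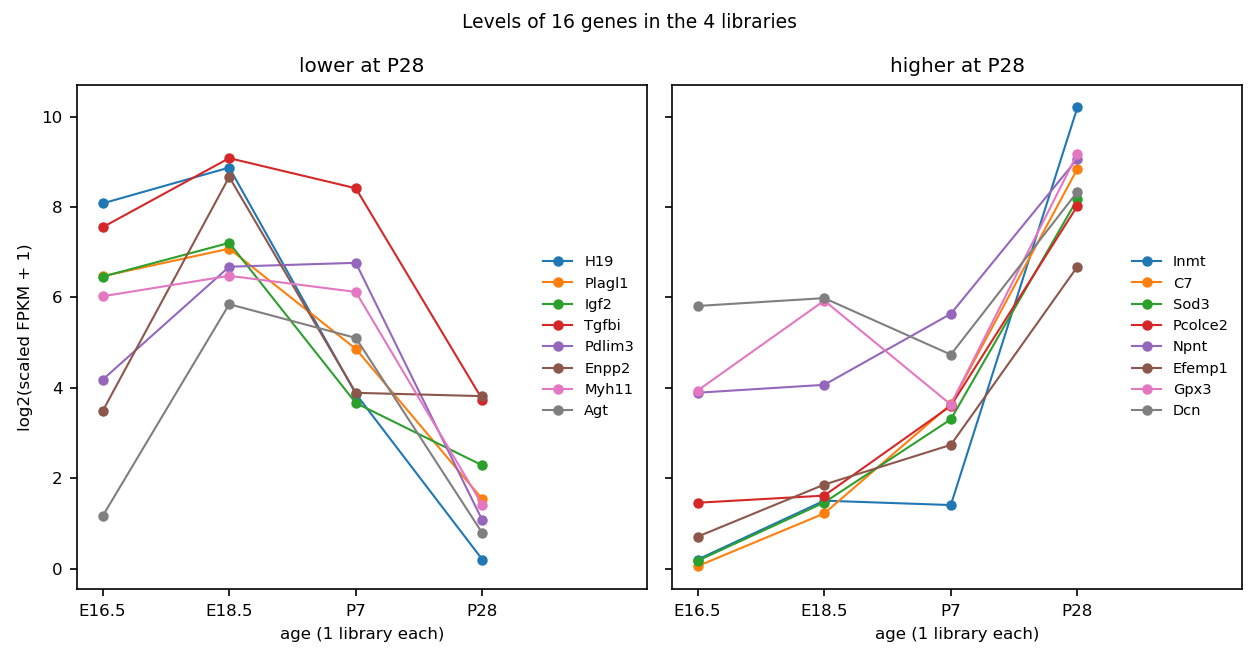
Levels of 8 genes lower at P28 (left) and 8 higher at P28 (right) as log2(scaled FPKM + 1) in the 4 libraries in order of age, 1 point per library. All 8 genes on the right are highest in the P28 library, and Enpp2 on the left stands out in the E18.5 library.

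In scaled values, P28 was the highest of the 4 libraries for 1076 of the 1295 higher genes, and E18.5 was the lowest for 578 of them. Among the 839 lower genes P28 was the lowest library for 597 and E18.5 was the highest for 617. The calls already set the order of E18.5 and P28, so these counts are partly fixed by them. A value was listed at 0 at E18.5 for 21 of the higher genes and at P28 for 47 of the lower genes.

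The gene groups are described by role, beginning with the matrix. Fibrillar collagens and their processing genes had 6 of 21 compared members higher at P28 and 4 lower (14 and 2 as deposited, median 0.34). The collagen-binding glycoprotein Sparc was at 379.9 at E18.5 and 2146 at P28 (2.50). The procollagen C-proteinase enhancers Pcolce and Pcolce2 had differences of 3.04 and 6.41. The chains Col1a1 and Col1a2 were at 261 and 515 and at 319 and 590.3, just short of a call (0.98 and 0.89). Lower at P28 were P4ha3, a proline hydroxylase subunit, at 39.8 and 2.20 (-3.67), the propeptidase Adamts14 (-3.64) and the minor fibrillar chain Col24a1 (-3.07, scaled only). Of 9 other collagens compared 1 was higher (Col18a1, 1.22) and 3 were lower (Col12a1, Col15a1 and Col16a1, all scaled only). The beaded-filament chains Col6a1, Col6a2 and Col6a3 differed by 0.42, 0.06 and -0.54, and none of them was called.

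Elastic fibre genes split. Of 22 listed 19 were compared, 8 were higher at P28 and 6 were lower (10 and 3 as deposited, median 0.28). Tropoelastin itself (Eln, minus strand of chromosome 5, 134702593 to 134747323, GRCm38) was at 813 scaled FPKM at E18.5 and 337 at P28, with 61.0 at E16.5 and 364 at P7. Its difference was -1.27, scaled only. The scaled level was highest at E18.5 of the 4 ages, but as deposited it was highest at P7, at 501 FPKM against 472 FPKM for E18.5. The cross-linking enzyme Lox was at 134 at E18.5 and 32 at P28 (-2.03), the fetal fibrillin Fbn2 at 25.4 and 0.404 (-4.23) and the latent TGF-beta binding protein Ltbp2 at 71.8 and 5.47 (-3.49). The higher genes included the lysyl oxidase relative Loxl1, at 2.43 and 33.5 (3.33), the microfibril gene Mfap5, at 7.38 and 74.7 (3.17), and Ltbp4, at 75.6 and 176 (1.21), beside Mfap4 and Efemp1.

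Small leucine-rich proteoglycans, which bind collagen fibrils and set their spacing, leaned one way. Of 10 compared 6 were higher and 0 were lower, with a median of 2.07 beside 0.09 over all genes. Prelp was at 33.2 at E18.5 and 435 at P28 (3.67), osteoglycin (Ogn) at 26.5 and 188 (2.78) and Ecm2 at 2.48 and 31.3 (3.22). Biglycan (Bgn), the most abundant, was at 603 and 727 (0.27) and was not called.

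Basement membrane genes had 4 of 17 higher (Npnt, Col4a5, Col4a3 and Hspg2) and 3 lower (Nid2, Frem1 and Col4a1, all scaled only), against 6 and 0 as deposited. Col4a5 and Col4a3, of the network found beneath alveolar epithelium, had differences of 2.07 and 1.78, while Col4a1, of the ubiquitous network, was at 132 at E18.5 and 61.3 at P28 (-1.09, scaled only). Matricellular genes were also divided, with 8 of 19 higher and 7 lower (9 and 6 as deposited). Periostin (Postn), which is also on the pericyte list, was at 103 and 9.71 (-3.27) and thrombospondin 1 (Thbs1) at 288 and 35.2 (-3.0). Higher were the IGF-binding protein Igfbp7 at 108 and 1041 (3.26), spondin 1 (Spon1) at 12.1 and 141 (3.45) and the CCN protein Wisp2 at 0.0803 and 21.9 (4.41).

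Matrix proteases and their inhibitors had 8 of 27 higher and 6 lower (15 and 2 as deposited). Inhibitors were among the higher: the metalloproteinase inhibitor Timp2 was at 49.4 at E18.5 and 209.6 at P28 (2.06), and the C1 inhibitor Serping1 was at 54.9 and 566 (3.34). The serine protease Htra1 was at 66.2 and 9.44 (-2.69). Gelatinase A (Mmp2), the most abundant protease of the list at E18.5, was at 198 and 131 (-0.59) and was not called.

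**Figure D4:**
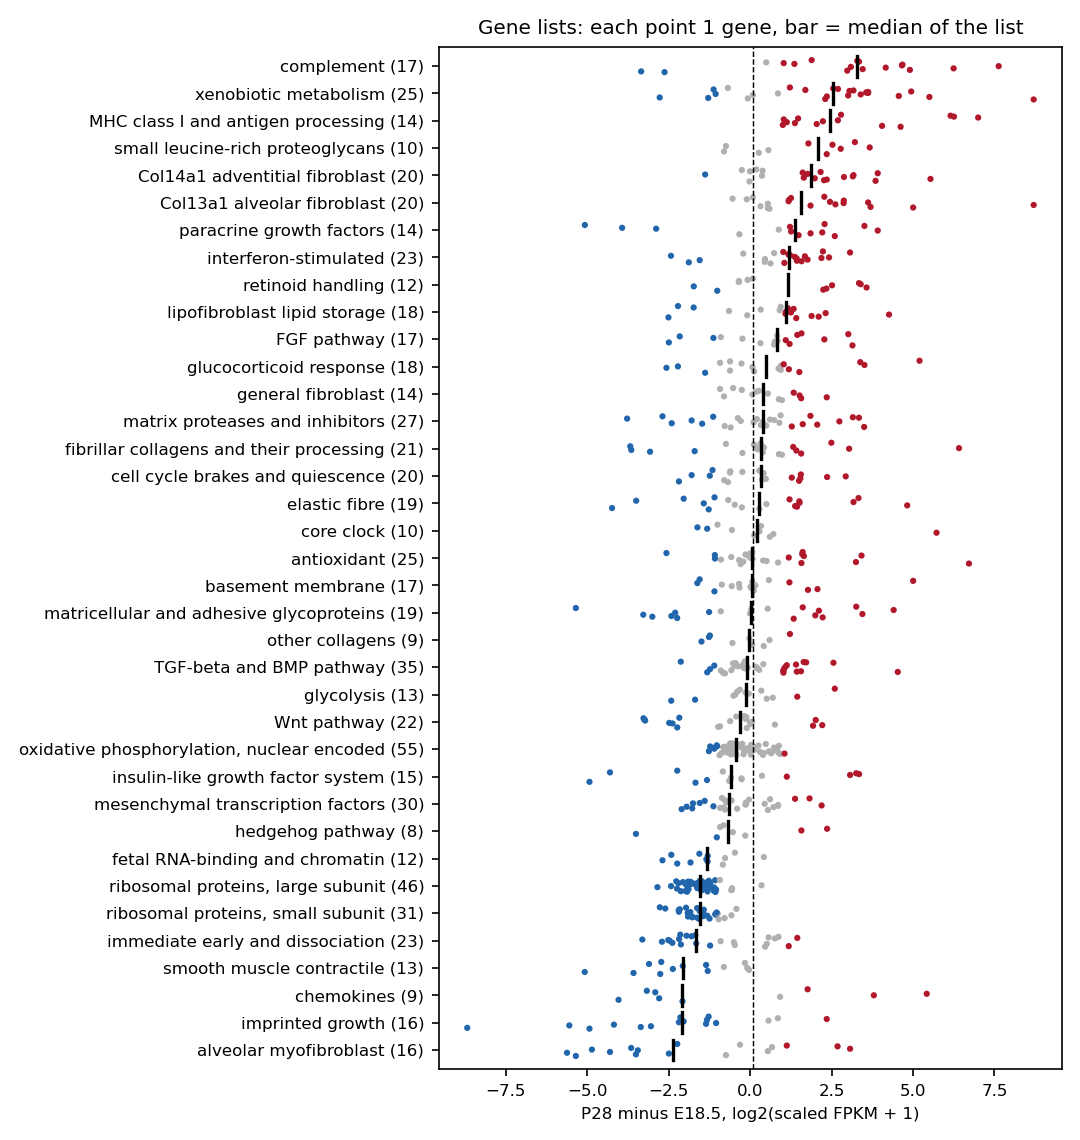
Differences between P28 and E18.5 in log2(scaled FPKM + 1) for the compared members of each fibroblast or cell division list with 8 or more of them (number in brackets), the lists of other cell types being left out, 1 point per gene and a black bar at the list median. Lists are ordered by median, from -2.36 for alveolar myofibroblast genes at the bottom to 3.29 for complement at the top; the dashed line is the median of all compared genes, 0.09.

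Contractile and myofibroblast genes were lower at P28. Of 16 smooth muscle contractile genes 13 were compared, 9 were lower and 0 were higher (median -2.06). Smooth muscle myosin (Myh11) was at 88.1 at E18.5 and 1.65 at P28 (-5.07), smooth muscle alpha actin (Acta2) at 68.0 and 9.22 (-2.75) and the gamma actin Actg2 at 21.2 and 0.863 (-3.57). Myocardin (Myocd), the coactivator that turns this program on, was at 7.78 and 0.329 (-2.72, scaled only), and the intermediate filament desmin (Des) at 33.1 and 5.61 (-2.37). Transgelin (Tagln) was closer between the libraries, at 28.3 and 10.9 (-1.30, scaled only). As deposited, 6 genes stayed lower and 0 were higher. Pericyte markers, which share this direction, had sums of 209 and 46.2, and much of the E18.5 sum was Postn, given above. The part of pericytes in the contractile difference was not tested.

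The alveolar myofibroblast list, 16 genes all compared, had 9 lower and 3 higher at P28 and a median of -2.36. As deposited 9 of 15 were lower and 5 were higher. Tgfbi, Pdlim3 and Enpp2, given above, led it. Stanniocalcin 1 (Stc1) was at 50.7 at E18.5 and 1.63 at P28 (-4.3) and Fgf18, a growth factor of the growing septum, at 25.9 and 3.80 (-2.49). The hedgehog-binding decoy Hhip was at 90.3 at E18.5 and 7.06 at P28, with 24.2 at E16.5 and 5.87 at P7 (-3.50) and so, like Enpp2, was highest in the E18.5 library. Wnt5a, a noncanonical Wnt ligand, was at 26.4 and 4.82 (-2.23). Igfbp5 was the main exception, at 16.9 and 149.7 (3.07).

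Genes of alveolar wall fibroblasts were higher at P28. Of the 20 genes that mark the Col13a1 fibroblast, all compared, 13 were higher and 0 were lower (median 1.56). Inmt, Npnt and Itga8 led them, followed by the carboxylesterase Ces1d at 5.84 at E18.5 and 83.3 at P28 (3.62) and the lipid-droplet-associated Mettl7a1 at 27.3 and 207 (2.88). The identity factor Tcf21 was at 88.8 and 130.3 (0.55), and Fgf10 and Wnt2, ligands for the epithelium, were at 3.89 and 5.11 and at 6.81 and 6.29. None of these 3 was called. Of the 20 compared genes of the adventitial Col14a1 fibroblast 13 were higher and 1 was lower (Scara5, scaled only), with a median of 1.88. The stem cell antigen Ly6a was at 2.25 and 149.8 (5.54), the alarmin Il33 at 1.2 and 32.3 (3.92), Pi16 at 0.819 and 25.3 (3.85) and dermatopontin (Dpt) at 44.8 and 220.3 (2.27). Ly6a is also expressed by endothelium and Il33 by alveolar type 2 cells, and the markers of both cell types were higher at P28.

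Lipid storage genes of lipofibroblasts had 10 of 18 higher and 3 lower (13 and 0 of 16 as deposited, median 1.10). The droplet coat protein Plin2, the usual lipofibroblast marker, was at 8.16 at E18.5 and 23.5 at P28 (1.42), the lipase Lpl at 2.09 and 10.4 (1.89) and the triglyceride lipase Pnpla2 at 3.15 and 19.7 (2.32). The fatty acid transporter Cd36 was at 3.94 at E18.5 and 94.0 at P28, with 1.57 at E16.5 and 75.5 at P7 (4.26) and is also an endothelial gene. Lower were the fatty acid binding protein Fabp4, at 6.47 and 0.319 (-2.50, scaled only), the parathyroid hormone receptor Pth1r, at 6.76 and 0.679 (-2.21, scaled only), and the phosphatidate phosphatase Lpin1 (scaled only).

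Retinoid handling was followed through its steps. Of 21 genes 12 were compared, 6 were higher and 2 were lower (6 and 0 as deposited, median 1.17). For uptake and storage, the retinol carrier Rbp4 was at 2.25 at E18.5 and 14.4 at P28 (2.25) and Lrat, the enzyme that esterifies retinol, at 0.274 and 14.2 (3.57), and the receptor Stra6 was under 1 in both. For oxidation to retinal, Rdh10 was at 13.5 and 3.38 (-1.73, scaled only) and the reverse enzyme Dhrs3 at 7.03 and 45.0 (2.52). For synthesis of retinoic acid, Aldh1a1 was at 50.9 and 546 (3.40), Aldh1a2 at 3.46 and 44.2 (3.34) and Aldh1a3 at 1.34 and 0.852. Aldh1a7, also on the club cell list, was at 29.1 and 22.7 (-0.34). The binding protein Crabp1 was at 0.654 and 7.39 (2.34) and Crabp2 at 1.06 and 0.0853. The degrading enzyme Cyp26b1 was under the minimum, at 0.414 and 1.88, Cyp26a1 was listed at 0 in both libraries, and the carotene cleavage enzyme Bcmo1 was under 1 in both. The receptors Rara (-0.34) and Rxra (-0.07) were compared and not called, and Rarb, Rarg and Rxrb did not reach the minimum. The 6 higher genes were thus carriers and enzymes, and no receptor was among them. Of the 2 lower genes only Rdh10 is named here.

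Imprinted growth genes were lower at P28 almost as a body. Of 24 listed 16 were compared, 13 were lower and 1 was higher, with a median of -2.09. As deposited 8 of 14 were lower and 3 were higher. H19 was described above. Igf2, the fetal insulin-like growth factor (minus strand of chromosome 7, 142650766 to 142666816, GRCm38), was at 147 scaled FPKM at E18.5 and 3.86 at P28, with 87.0 at E16.5 and 11.7 at P7, a difference of -4.92. The zinc finger factor Plagl1, which acts upstream in this network, was at 134 at E18.5 and 1.90 at P28 (-5.54) and Mest at 56.8 and 2.20 (-4.18). The noncoding RNAs Meg3 and Rian, from 1 imprinted cluster, had differences of -3.35 and -3.04. Gnas, which encodes a G protein subunit, was the most abundant member at P28 and was not called, at 391 and 579.9 (0.57). The 1 higher gene, Dcn, encodes a matrix proteoglycan and is also on 3 other lists, so it does not belong with the growth genes by its role.

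**Figure D5:**
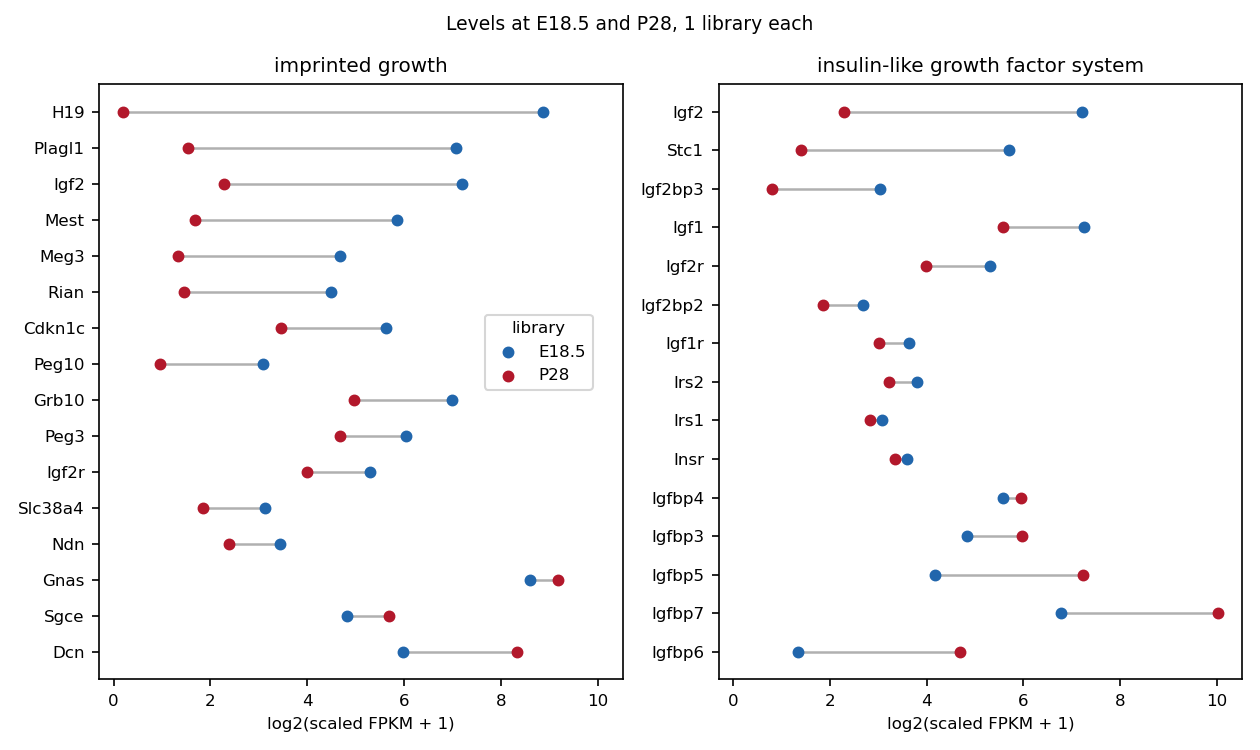
Levels at E18.5 (blue) and P28 (red) as log2(scaled FPKM + 1) for the 16 compared imprinted growth genes (left) and the 15 compared genes of the insulin-like growth factor system (right), ordered by difference, 1 library per point. The ligands Igf2 and Igf1 (the latter scaled only) are lower at P28 and the binding proteins Igfbp3, Igfbp5, Igfbp6 and Igfbp7 are higher.

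The insulin-like growth factor system divided by role. Of 15 genes compared 4 were higher and 5 were lower (6 and 2 of 14 as deposited). Both ligands were lower at P28: Igf2 as given, and Igf1 at 152 at E18.5 and 46.8 at P28 (-1.67, scaled only). Among the receptors, the clearance receptor Igf2r was at 38.6 and 14.8 (-1.32, scaled only), while the signalling receptors Igf1r and Insr differed by -0.64 and -0.26 and were not called. The adaptors Irs1 and Irs2 were not called either (-0.26 and -0.59). The 4 higher genes were all binding proteins. Igfbp7, which binds IGFs weakly and is also known as a matrix and vascular protein, is given above. Igfbp6, a binder with preference for IGF2, was at 1.53 and 24.7 (3.35), Igfbp5 is given above, and Igfbp3, the main carrier in serum, was at 27.6 and 61.6 (1.13). Igfbp4 was at 46.7 and 60.4 (0.37), Igfbp2 did not reach the minimum (0.138 and 2.21), and Igfbp1 was listed at 0 in both. The protease Pappa, which frees IGF from Igfbp4, was under the minimum (3.90 and 1.07), as was Pappa2 (0.835 and 0.579). Its inhibitor Stc1 was lower, as given, and Stc2 was at 1.13 and 4.85. The mRNA-binding proteins Igf2bp1, Igf2bp2 and Igf2bp3 were at 1.17 and 0.104, at 5.43 and 2.61 and at 7.21 and 0.745. Of these only Igf2bp3 was called lower (scaled only).

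Fetal RNA-binding and chromatin genes had 8 of 12 lower and 0 higher (median -1.32). Sox11, a transcription factor of immature cells, was at 11.8 at E18.5 and 0.993 at P28 (-2.69), the RNA-binding protein Mex3a at 7.85 and 0.660 (-2.41, scaled only) and the histone methyltransferase Ezh2 at 12.4 and 4.3 (-1.34, scaled only). As deposited 2 of 8 stayed lower and 1 was higher. Stathmin 1 (Stmn1) stood apart, at 29.1 and 39.3 (0.42).

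In the PDGF pathway 4 of 7 genes were compared, 0 higher and 2 lower (1 and 0 as deposited). Besides Pdgfra, the beta receptor Pdgfrb, a pericyte marker, was at 14.5 at E18.5 and 4.70 at P28 (-1.44, scaled only) and the receptor-like Pdgfrl at 10.5 and 4.21 (-1.14, scaled only). The ligand Pdgfa was at 9.47 and 14.2 (0.54), and Pdgfb, Pdgfc and Pdgfd did not reach the minimum, at 1.18 and 3.99, at 0.811 and 0.153 and at 1.12 and 2.78.

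In the hedgehog pathway 8 of 17 genes were compared, 2 higher and 2 lower (2 and 1 as deposited). The ligands Shh, Ihh and Dhh were all under 1 scaled FPKM in both libraries. The receptor Ptch1, itself a target of the pathway, was at 33.2 at E18.5 and 15.9 at P28 (-1.02, scaled only), and the signal transducer Smo was at 17.9 and 16.1 (-0.15). The target Gli1 was at 3.19 and 1.58, and Gli2, Gli3, Sufu and Foxl1 also did not reach the minimum. Of the co-receptors, Gas1 and Cdon were higher (2.37 and 1.58), and Boc was not called (-0.53). The forkhead factors Foxf1 and Foxf2, which respond to hedgehog in lung mesenchyme, were at 30.0 and 15.4 and at 23.1 and 12.7 and were not called. The other lower gene was Hhip, given above.

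In the Wnt pathway 3 of 22 genes were higher and 7 lower. The transcription factor Lef1 was at 9.17 at E18.5 and 0.0561 at P28 (-3.27), the R-spondin receptor Lgr6 at 14.5 and 0.636 (-3.24) and the secreted inhibitor Wif1 at 14.6 and 0.676 (-3.22). The Wnt5a receptors Ror1 and Ror2 were lower with their ligand (-2.38 and -2.48). Frizzled 7 (Fzd7) was higher, at 6.31 and 32.9 (2.22). All 7 lower calls of the list were also made as deposited.

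TGF-beta and BMP genes had 12 of 35 higher and 4 lower (15 and 1 of 32 as deposited), with a median of -0.09. Bmp3, an atypical BMP that opposes BMP signalling, was at 3.54 at E18.5 and 104 at P28, with 2.87 at E16.5 and 7.13 at P7 (4.53). Bmp4 was at 23 at E18.5 and 63.8 at P28 (1.44) and Bmp5 at 26.4 and 79.9 (1.56). The BMP antagonists Chrdl1 (2.56) and Nbl1 (1.72) and the modulator Bmper (1.65) were higher as well. The Smad corepressor Skil was lower, at 36.7 and 7.64 (-2.12). Endothelium also expresses genes of these pathways, and its markers had sums of 97.2 and 398. Their part was not tested.

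FGF pathway genes had 7 of 17 higher and 3 lower (11 and 2 as deposited, median 0.83). Ligands moved apart: Fgf1 was at 1.46 at E18.5 and 20.7 at P28 (3.14) and Fgf7, a mitogen for epithelium, at 14.7 and 35.5 (1.21), whereas Fgf18 was lower as given. The receptor Fgfr4 was at 2.93 and 18.1 (2.28) and Fgfr2 at 20.02 and 36.8 (0.85). The feedback inhibitor Spred1 was at 45.2 and 9.35 (-2.16). The target Etv5, at 3.13 and 32.4 (3.01), is also on the alveolar type 2 list.

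In the Notch pathway 6 of 18 genes were compared. The targets diverged: Hes1 was at 108 at E18.5 and 12.3 at P28 (-3.03), while Hey1 (1.98) and Heyl (1.89) were higher. Of the receptors, Notch1 and Notch2 were compared and not called (0.38 and 0.39).

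Paracrine growth factors had 9 of 14 higher and 3 lower (median 1.37). Hgf, a mitogen for epithelium and endothelium, was at 0.824 at E18.5 and 10.1 at P28 (2.60), Figf (VEGF-D) at 38.2 and 141 (1.86) and the lipase inhibitor Angptl4 at 7.84 and 99.8 (3.51). Vegfa, which type 1 cells also make, was at 9.25 and 27.8 (1.49). The 3 lower genes were Agt, as given, and the heparin-binding factors Ptn and Mdk. Pleiotrophin (Ptn) was at 37.2 and 1.52 (-3.92) and midkine (Mdk) at 184 and 24.1 (-2.88).

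Complement genes had 14 of 17 compared members higher against a background of 20.3%, with a median of 3.29. The median depended on the minimum, at 0.50 over 29 genes with none and 4.41 over 10 genes with a minimum of 20. C3 (minus strand of chromosome 17, 57203970 to 57228136, GRCm38), the central component, was at 4.51 at E18.5 and 417 at P28, with 15.9 at E16.5 and 68.7 at P7 (6.25). The classical-pathway protease C1s was at 2.07 at E18.5 and 90.9 at P28 (4.90) and C4b at 0.292 and 22.1 (4.16). The alternative-pathway protease Cfb was at 0.244 and 30.5 (4.66). The C1 inhibitor Serping1 and the terminal component C7 are given above, and Hc, which encodes C5, was at 1.26 and 133 (5.90). The 2 lower genes, C1qb (scaled only) and C1qc, encode C1q chains made by macrophages. Mesothelial and alveolar type 2 cells also express complement genes such as C3, and their markers were higher at P28, with mesothelial sums of 23.2 and 192. Their part in the complement difference was not tested.

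MHC genes were likewise higher. The list of MHC class I and antigen processing genes had 14 of 14 compared members higher (median 2.47), also as deposited, where differences can only be larger. With scaling on the 2 columns alone, upper-quartile scaling or a total without ribosomal, erythroid and other cell genes, 12 of 14 were higher. A pseudocount of 5 left 10 of 14 higher. The list includes the class II genes H2-Aa, H2-Ab1, H2-Eb1 and Cd74, which are the business of antigen-presenting cells and of alveolar type 2 cells and not of the class I pathway. Without these 4 the list had 10 of 10 higher and a median of 1.76. The class I heavy chain H2-K1 was at 3.80 at E18.5 and 117 at P28, with 15.1 at E16.5 and 32.9 at P7 (4.62). The class I gene H2-D1 was at 3.68 at E18.5 and 76.6 at P28 (4.05), with the caution that heavy chain copies share reads. The light chain B2m, a single-copy gene, was at 225 and 586 (1.38). The class II chain H2-Aa was at 0.712 and 129.9 (6.26), and its invariant chain Cd74 at 2.19 and 407 (7.00). The dendritic cell receptor Flt3 was listed at 0 in both libraries.

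The RefSeq promoter windows of H2-K1, H2-D1 and B2m (GRCm38.p6, same length) are shown because they belong to class I genes that were higher together. They lie at chr17:34000298-34000597 (minus strand), chr17:35262844-35263143 (plus strand) and chr2:122147437-122147736 (plus strand). H2-K1 has 2 starts listed and the window with the higher coordinates is printed. Capitals mark CCAAT or its reverse complement ATTGG.
H2-K1: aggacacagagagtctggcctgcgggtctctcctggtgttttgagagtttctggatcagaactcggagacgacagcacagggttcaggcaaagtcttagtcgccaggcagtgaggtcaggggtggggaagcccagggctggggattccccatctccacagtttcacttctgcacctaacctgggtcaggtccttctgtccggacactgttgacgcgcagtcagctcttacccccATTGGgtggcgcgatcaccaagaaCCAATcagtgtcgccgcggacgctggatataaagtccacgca
H2-D1: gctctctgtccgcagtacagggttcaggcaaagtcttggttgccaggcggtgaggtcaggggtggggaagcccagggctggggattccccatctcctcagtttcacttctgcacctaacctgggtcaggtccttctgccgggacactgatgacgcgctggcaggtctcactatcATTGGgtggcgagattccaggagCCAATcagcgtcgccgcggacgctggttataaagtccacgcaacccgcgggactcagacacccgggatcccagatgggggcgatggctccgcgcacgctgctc
B2m: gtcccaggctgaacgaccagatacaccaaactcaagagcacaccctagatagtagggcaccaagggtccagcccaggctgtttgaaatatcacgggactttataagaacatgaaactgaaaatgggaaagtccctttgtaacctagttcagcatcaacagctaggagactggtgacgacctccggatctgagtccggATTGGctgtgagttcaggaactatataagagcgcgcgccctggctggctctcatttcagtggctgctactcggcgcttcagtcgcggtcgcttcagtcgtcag
Both heavy chain windows held 2 copies and the B2m window 1. At least 1 copy was present in 14 of the 17 listed genes that had a window (82.4%), from which class II genes were not taken out. The share was 41.1% of all genes and 42.5% of the compared genes with a window. Among the other lists higher at P28 that were counted, it was 2 of 18 complement genes (11.1%) and 19 of 32 xenobiotic metabolism genes (59.4%). By window the share was 37.4% of all 32851. Genes can have several windows, and the H2 copies share sequence, so these genes are not independent.

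Interferon-stimulated genes had 15 of 23 higher and 3 lower (19 and 2 as deposited, median 1.19). The number higher was 10 of 19 with scaling on the 2 columns alone and 13 of 22 with upper-quartile scaling. It was 11 of 21 with a total without ribosomal, erythroid and other cell genes, and 6 of 23 with a pseudocount of 5. The interferon gamma receptor chain Ifngr1 was at 9.64 at E18.5 and 88.3 at P28 (3.07), the guanylate-binding protein Gbp2 at 1.75 and 13.8 (2.42) and tetherin (Bst2) at 1.65 and 11.1 (2.19). Ifitm3, the most abundant, was at 502 and 691 (0.46) and was not called. The 3 lower genes were the transcription factor Irf1, at 23.1 and 5.56 (-1.88), the GTPase Iigp1, at 51.9 and 8.84 (-2.43), and Ifitm1 (scaled only).

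Chemokines had 3 of 9 compared genes higher and 5 lower (4 and 4 of 8 as deposited). The lower genes are known as inflammatory chemokines: Cxcl2 was at 15.4 at E18.5 and, at P28, listed at 0, Cxcl10 was at 32.6 at E18.5 and 3.86 at P28 (-2.79) and Ccl2 at 10.4 and 0.524 (-2.91). Higher was Cxcl14, at 0.981 and 26.6 (3.80), and Cxcl15, a lung epithelial chemokine on the alveolar type 2 list, at 5.0 and 256 (5.42). The median of the list, -2.07, changed sign with the minimum level and with the scaling, so no direction is given for it.

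Xenobiotic metabolism genes were higher for 17 of 25 compared members and lower for 4 (19 and 1 of 26 as deposited), with a median of 2.55. Apart from Inmt, the glutathione transferase Gsta3 was at 0.181 at E18.5 and 35.4 at P28 (4.94), the cytochrome P450 gene Cyp4b1 at 0.260 and 28.8 (4.56) and the aldehyde oxidase Aox3 at 0.483 and 17.3 (3.62). Cyp2f2 is a club cell gene, at 4.81 and 262 (5.50), and its level moved with Scgb1a1. The club cell list had sums of 101 and 19464. The part of epithelial cells in the differences of the other xenobiotic genes was not tested. Aldh1a1, the most abundant after Inmt, is also on the retinoid list. Adh1, the class I alcohol dehydrogenase, was high in both libraries, at 260.5 and 277 (0.09).

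Antioxidant genes had 8 of 25 higher and 3 lower (11 and 1 as deposited), with a median of 0.07. Higher were the secreted enzymes Sod3, as given, and the plasma glutathione peroxidase Gpx3, at 59.9 at E18.5 and 579 at P28, with 14.3 at E16.5 and 11.4 at P7 (3.25). Gclc, the catalytic subunit of glutathione synthesis, was at 1.78 at E18.5 and 28.7 at P28 (3.42). The cytosolic Sod1, the most abundant of the list at E18.5, was at 526 and 431 (-0.29). Metallothionein 1 (Mt1), which binds metals and responds to glucocorticoid, was at 105 and 16.9 (-2.56).

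Glycolysis genes had 2 of 13 higher and 2 lower (5 and 1 of 12 as deposited). The glucose transporter Slc2a1 was at 39.3 at E18.5 and 6.55 at P28 (-2.42) and hexokinase 2 (Hk2) at 7.97 and 1.79 (-1.69, scaled only), while the lactate dehydrogenase chain Ldhb was at 6.32 and 43.4 (2.60) and Ldha at 152 and 122 (-0.31). Of 55 nuclear genes of oxidative phosphorylation, all compared, 1 was higher (Ndufa9, 1.06) and 6 were lower, a smaller share than the 20.3% and 13.1% of all genes. The median of -0.42 lay above 0 as deposited (0.45), so no direction is given.

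Ribosomal protein genes shared a direction. Of 46 large subunit genes, all compared, 41 were lower at P28 and 0 were higher, and of 31 small subunit genes 26 were lower and 0 were higher. Both medians were -1.55, and the summed levels were 15569 and 5757 scaled FPKM for the large and 9283 and 3435 for the small subunit. Rpsa was at 205 at E18.5 and 29.2 at P28 (-2.77) and Rps29 at 713 and 182 (-1.96). Rpl10, the most abundant at E18.5, was at 1246 and 848 (-0.56) and was not called. As deposited both medians were -0.66, with 13 large and 9 small subunit genes still lower and 1 large subunit gene, Rpl26, higher. Ribosomal protein genes have many processed pseudogenes that can take their reads. The length of each gene was taken as the median over all its annotated transcripts, and ribosomal protein genes had a median of 632 bases. The other genes under 700 bases on this measure had a median difference of 0.08. This length need not be that of the transcripts present in the cells, and the part of transcript length was not tested.

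Glucocorticoid response genes, of interest because fetal glucocorticoid surges before birth, had 6 of 18 higher and 3 lower (9 and 2 as deposited, median 0.50). Hsd11b1, which regenerates active glucocorticoid, was at 21.4 at E18.5 and 232 at P28 (3.38), and Tsc22d3, the classical target GILZ, at 12.1 and 36.4 (1.51). Lipocalin 2 (Lcn2), also an epithelial and inflammatory gene, was at 2.62 and 132 (5.20). The receptor Nr3c1 was at 24.6 and 12.5 (-0.92), and the NF-kappaB inhibitor Nfkbia was lower, at 31.5 and 6.01 (-2.21).

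Immediate early and dissociation-responsive genes had 13 of 23 lower and 2 higher (median -1.65). The orphan receptor Nr4a2 was at 37.4 at E18.5 and 2.89 at P28 (-3.30), the mRNA-decay factor Zfp36 at 972 and 175 (-2.47), Atf3 at 79.8 and 14.5 (-2.38) and Egr1 at 362 and 115 (-1.65, scaled only). Dusp1, a phosphatase of the same response, was higher in level at P28 without a call, at 257 and 471 (0.87). As deposited 9 genes were lower and 7 higher. Such genes respond within minutes to tissue handling, and the part of cell isolation in these values was not tested.

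Among 20 clock genes 10 were compared, 1 was higher and 2 were lower (the repressors Bhlhe40, -1.61, scaled only, and Nfil3, -1.31, scaled only). The nuclear receptor Nr1d1, a repressor in the clock loop, was at 0.754 at E18.5 and 91.6 at P28, with 0.391 at E16.5 and 4.82 at P7 (5.72). Arntl, the activator whose transcription Nr1d1 represses, was at 2.83 at E18.5 and 3.86 at P28 and Dbp at 0.254 and 0.481, both under the minimum. Clock was at 7.25 and 11.6 (0.61). The time of day of collection is not given in the labels.

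Mesenchymal transcription factors had 3 of 30 higher and 7 lower (10 and 2 of 28 as deposited). The T-box factors Tbx3 and Tbx5, which act in lung mesenchyme, were at 48.2 at E18.5 and 10.5 at P28 (-2.10) and at 48.2 and 13.4 (-1.77, scaled only). Zeb2 was at 55.0 and 15.6 (-1.75, scaled only). Osr1, an early mesenchymal factor, was higher, at 2.42 and 14.7 (2.20), as was the adipogenic and epithelial factor Cebpa, at 3.99 and 16.7 (1.83). Tcf21, the most abundant of them at P28, was not called, as given above.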

How the data were processed

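The depth of the libraries and the program that made the expression values are not given in the sources used here. Per the labels' protocols, total RNA was isolated with the QIAamp Circulating Nucleic Acid Kit, reverse transcribed with the Verso kit and made into Nextera XT libraries for paired-end reads. TopHat, TopHat2 2.0.9, GRCm38 and mm10 are named, per the submitters' processing notes. The authors deposited FPKM for 23931 entries in 4 columns, 1 per age, per the file headers. Raw counts were not used here, so counting error cannot be given.

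The 745 entries that fell under 258 repeated symbols were added up by symbol. Each column was divided by its median ratio to the geometric mean of the 4 columns over 7930 genes (minimum 1 FPKM in every column), and the deposited values were taken as log2(value + 1). A call needed 5 scaled FPKM in the higher library and a 2-fold difference. No statistical test was used, because there is 1 library per age. The code was tested on simulated data. Gene groups came from 60 lists with 1332 entries, 1311 of them in the table, and several genes are on more than 1 list.

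Genes named in the text were Pdgfra, the 20 largest differences in each direction at 10 scaled FPKM or more outside lists of other cells, the 6 largest on those lists, from each fibroblast or division list the 6 members that differed most and the 3 most abundant, from each list of other cells the 3 most abundant and those at 0, all members of the PDGF, hedgehog, insulin-like growth factor and retinoid lists, and a set of anchor genes. Btg1, Gas5, Scara5, Lpin1, C1qc, Ifitm1, Rpl26, Kit and Snora23 were named after their values were seen, to complete small counts. A few genes under this rule are not reported here. The comparison, its members and the lists were chosen with earlier results of these data known. The settings varied were the pseudocount (0.1 and 5), the minimum (none and 20), a 4-fold threshold, 4 other scalings, and the removal of repeated symbols, of small RNA and predicted genes and of genes of other cells. Coordinates are from GENCODE M21 and promoter windows from RefSeq on GRCm38.p6. Python 3.11.15, numpy 2.4.6, pandas 2.3.3 and matplotlib 3.10.9 were used.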

Additional observations from a re-analysis of the deposited data

How the results depend on the processing

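Against 1295 higher and 839 lower genes, a pseudocount of 5 gave 788 and 536, a minimum of 20 scaled FPKM gave 486 and 414, a 4-fold threshold gave 497 and 280, and FPKM as deposited gave 2951 and 279. No minimum gave 2039 higher and 1235 lower. The remaining alternatives (a pseudocount of 0.1, scaling on the 2 columns alone, upper-quartile scaling, a total without ribosomal, erythroid and other cell genes, and the removals of genes) stayed within 1.5 times of both counts. Under every scaling, 1042 of the 1295 higher and 279 of the 839 lower genes kept their call. The median of the chemokine list, -2.07, became 0.088 with no minimum, 2.36 with a minimum of 20 and 0.20 as deposited; the cause was not tested. The median of the macrophage list, -2.30, became 6.05 with a minimum of 20, where Lyz2 was the 1 gene left. No paired analysis was possible because each age has 1 library. Leaving out a replicate was not possible for the same reason. Steps between values under 0.1 FPKM put the depth of P28 at about 1.35 times that of E18.5, a weak estimate, since the most common ratio held 2.59% of 925 genes. Low values, and calls near the minimum, therefore rest on an unknown number of reads.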

Other observations

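Some of the largest differences belonged to genes outside the groups described. Higher at P28 were the acute-phase protease inhibitor Serpina3n, at 0.844 scaled FPKM at E18.5 and 74.7 at P28 (5.36), and Mamdc2, which encodes a secreted MAM-domain protein, at 3.79 and 128 (4.75). Lower were the secreted factor Ccdc3, at 119 and 1.25 (-5.74), the neuronal calcium sensor Vsnl1, at 52.6 and 1.26 (-4.57), and the LIM-domain repressor Lmcd1, at 30.4 and 0.516 (-4.37). The small nucleolar RNA Snora23 was the 1 gene above 10 FPKM in the other 3 libraries and listed at 0 at P28.

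Markers of further cell types were few. Of 13 neutrophil and mast cell genes 4 were compared, 3 were lower at P28 and the receptor Kit was higher. Of 10 striated and cardiac muscle genes 4 were compared and 3 were lower (2 of 2 as deposited), among them troponin T (Tnnt2), at 15.9 at E18.5 and 0.473 at P28 (-3.52). The platelet factor Pf4 was at 18.2 and 0.340 (-3.84). Of 5 lymphatic genes 2 were compared and both were higher, Lyve1 at 9.01 and 24.6 and Flt4 at 1.68 and 6.97. None of 10 Schwann cell and neural genes reached the minimum. The 4 class II genes that were compared on the dendritic cell list were all higher at P28, while its other 4 members stayed under 1 scaled FPKM in both libraries.

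The sex-linked transcripts were alike in the 2 libraries and unlike P7. The Y-linked gene Ddx3y was at 8.52 at E18.5 and 5.65 at P28, with 5.24 at E16.5 and listed at 0 at P7. Xist, the RNA of the inactive X chromosome, was at 0.0271 at E18.5 and 0.0495 at P28, with 0.0103 at E16.5 and 63.4 at P7. By these transcripts the E16.5, E18.5 and P28 libraries had a male pattern and the P7 library a female pattern. The part of sex in the P7 levels quoted above was not tested.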
